A study of Rattus norvegicus with 16 samples.

Results

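Gene expression in the rat dentate gyrus at late hours after training was compared with that at early hours. The late window held the 7 arrays labelled 6 h (3 arrays), 12 h (2) and 24 h (2), and the early window the 6 arrays labelled 0 h (2), 2 h (2) and 3 h (2), together 13 of the 16 arrays of the series. The arrays were assigned by their hour labels alone, but the windows themselves were chosen with earlier results of these data known. The other 3 arrays, labelled naive, were left out. All arrays carried total RNA from Rattus norvegicus dentate gyrus on the Affymetrix RGU34A, a single-colour rat array that reads each transcript with 1 or more probe sets. The labels of all 16 arrays, naive included, describe passive avoidance trained rats, and name no strain, sex, age or drug. They do not state that hours were counted from training, and they do not say whether replicates came from separate animals, so a p-value here reflects the spread among these arrays alone, and that spread may be technical.

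Passive avoidance is a task in which an animal learns to hold back from a place or act that it associates with an unpleasant stimulus. The dentate gyrus is the entry station of the hippocampus, where granule neurons receive cortical input and pass it on to pyramidal neurons. Strong activity in granule neurons induces immediate early genes such as Fos, Arc, Egr1 and the short form of Homer1 within the hour, and slower programmes of transcription are commonly sought in the hours that follow. A contrast of late with early hours asks which transcripts differ between these stages.

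No transcript was separated between the windows at the adjusted threshold. Of 5339 probe sets tested, 0 passed an adjusted p of 0.05 in limma's moderated linear model (0% called), and the smallest adjusted p was 0.924. An unadjusted p under 0.05 was reached by 227 probe sets, 4.25% of those tested, where 267 would be reached if nothing differed. Of these, 106 (1.99%) were higher and 121 (2.27%) lower in late arrays. This count was 149 without 2 h replicate 2. The median log2 difference, late minus early, was 0.02 over all tested probe sets, and the middle 50% lay between -0.14 and 0.16. The 95% interval of a log2 difference had a median half-width of 0.43, a 1.34-fold change, and 98.1% of probe sets had a half-width under 1. An absolute log2 difference over 1 was measured for 17 probe sets, and the extremes were -1.37 and 1.17.

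**Figure D1:**
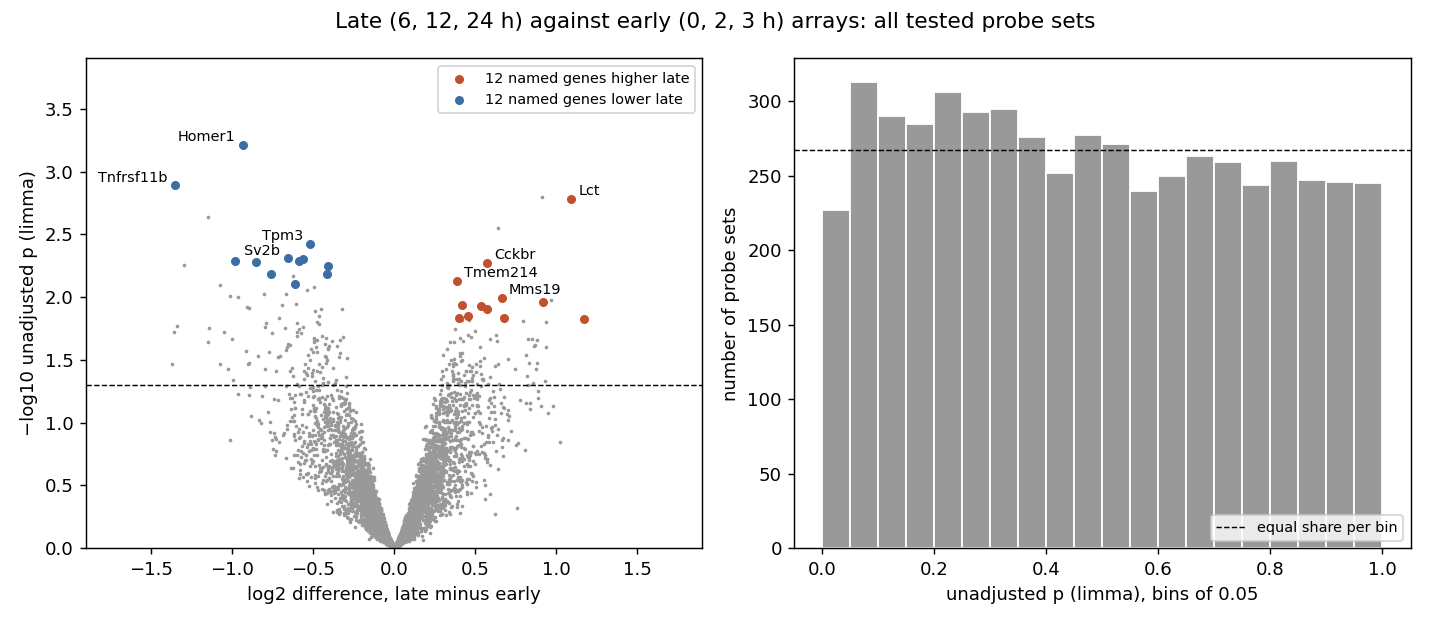
Left, log2 difference of late minus early arrays (x axis) against -log10 of the unadjusted limma p (y axis) for the 5339 tested probe sets, with the 12 named genes of each direction coloured and the dashed line at 0.05. Right, number of probe sets by unadjusted p, with the dashed line at an equal share per bin. The 227 probe sets past the line are fewer than the 267 of an equal share, and Homer1 has the smallest p among the named genes.

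Arrays correlated about as closely between windows as between hours of the same window. The correlation between arrays had a median of 0.962 within an hour, 0.959 between hours of the same window and 0.959 between windows. The arrays least like the others were 12 h replicate 1 (mean correlation 0.946) and 6 h replicate 2 (0.947), both late. Before scaling, the 2% trimmed mean of an array ranged from 33.3 to 170 in late arrays and from 56.6 to 148 in early arrays. The 3'/5' ratio of the beta-actin control probe sets, a sign of RNA length, was 1.77, 2.02 and 2.80 (lowest, median, highest) in late arrays and 1.51, 2.22 and 2.69 in early arrays (exact permutation p = 0.875, 2-sided, 1716 splits). Ttr, the choroid plexus transcript for transthyretin, spanned 66.0 to 3601 scaled intensity units in late arrays and 63.6 to 2218 in early arrays (exact permutation p = 0.61). Within the late window, the 6 h arrays gave 1153 to 3601 and the 12 h and 24 h arrays 66.0 to 203. Among early arrays, 0 h replicate 1 gave 2218 and the others 63.6 to 471. Adjusted over the 4 array measures tested, both p-values were 0.875. Taking the 6 hours as the units, 3 against 3, no p below 0.1 could be reached by an exact test.

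Markers fixed for the dentate gyrus were only partly on the array. Calb1, the calcium buffer calbindin of mature granule neurons, and Neurod1, a transcription factor of the granule lineage, were measured and tested. Prox1, Dsp and C1ql2 had no probe set under these symbols, and the probe set of Tdo2 was below the filter. The label could therefore be checked only against a few genes. In the granule neuron list, 0 of 8 probe sets had an unadjusted p under 0.05, and Calb1 had a log2 difference of 0.23 (95% interval -0.04 to 0.50). In tissue RNA, fewer cells of a type and less RNA per cell cannot be told apart.

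Homer1 had the smallest p of all named genes. It encodes a scaffold of the postsynaptic density that links group I metabotropic glutamate receptors to intracellular calcium stores, and its short form is an immediate early gene that uncouples this link. Its scaled intensity was 26.6, 36.0 and 68.3 (lowest, median, highest) in late arrays and 47.8, 74.6 and 87.6 in early arrays. The windows overlapped through 6 h replicate 3 alone, the only late array above 38.9. The mean was 1.91-fold lower in late arrays (log2 difference -0.93, SE 0.22, 95% interval -1.41 to -0.46), and the limma adjusted p of 0.924 did not pass. By hour, the mean log2 intensity was 6.37 at 0 h, 6.28 at 2 h, 5.64 at 3 h, 5.38 at 6 h, 4.76 at 12 h and 5.23 at 24 h. The 0 h and 2 h arrays were thus above both 3 h arrays as well as above all late arrays. Without 6 h replicate 3, Homer1 had the lowest adjusted p it reached under any alternative, 0.184.

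The array carries 6 probe sets for Homer1, and the files do not say which splice form each one reads. Log2 differences of the 5 others were -0.43, -0.43, -0.32, -0.26 and 0.16. In all, 5 of 6 lay below 0, and 3 had an unadjusted p under 0.05. The second of these 3 gave 86.9, 93.6 and 118 units in late arrays and 111, 129 and 136 in early arrays (log2 difference -0.32, SE 0.13). The third gave 99.96, 121 and 199 in late arrays and 133, 172 and 228 in early arrays (-0.43, SE 0.17). Both sets of arrays overlapped. Probe sets of 1 gene share their RNA and are not replicates.

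**Figure D2:**
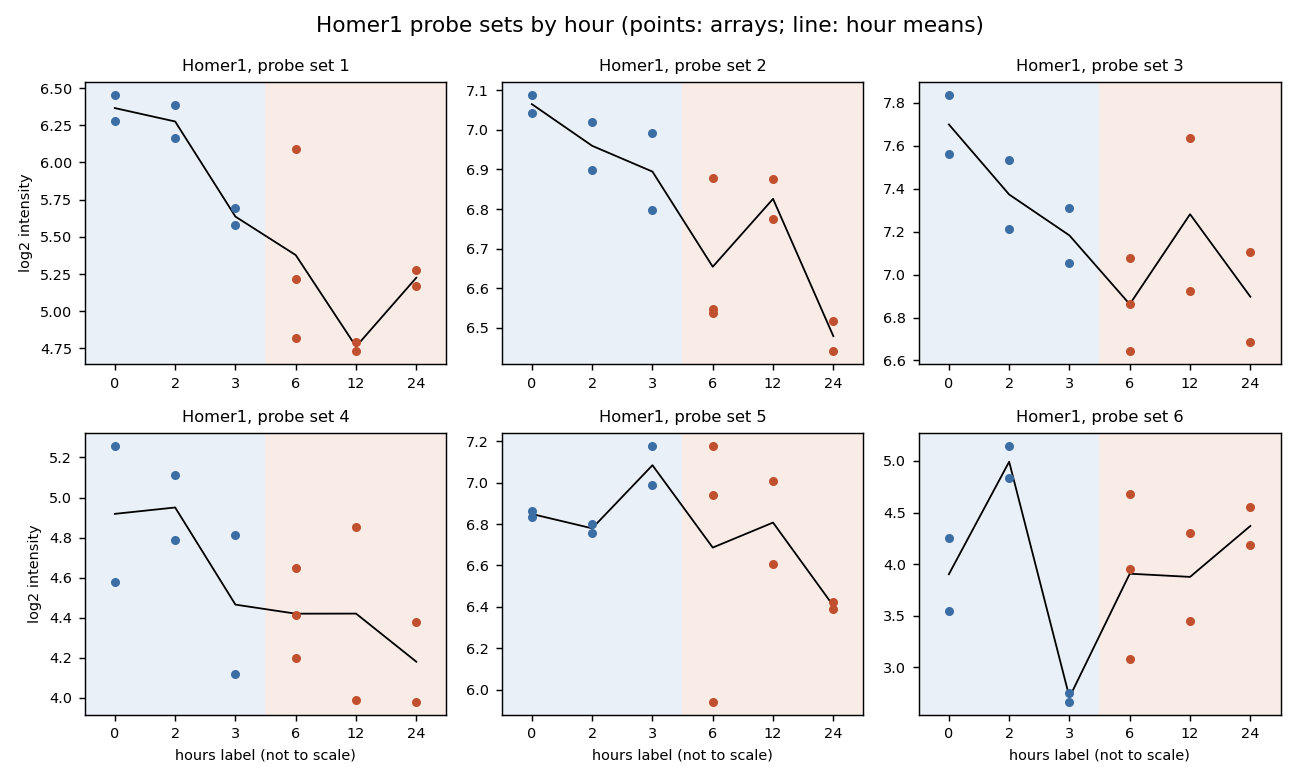
Log2 scaled intensity (y axis) of the 6 Homer1 probe sets by hour label (x axis, not to scale), in order of p, with points for arrays and lines through hour means. Early hours are shaded blue and late hours red. In the leading probe set the hour means lie between 5.64 and 6.37 at the early hours and between 4.76 and 5.38 at the late hours.

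None of the other immediate early genes tested reached an unadjusted p of 0.05. The list, Homer1 included, had 36 genes (74 probe sets) on the array, of which 30 genes (55 probe sets) passed the filter. Without the filter, 5 of 74 probe sets were under an unadjusted 0.05, all lower. Over 49 probe sets of 29 genes other than Homer1, 24 were higher and 25 lower in late arrays, with log2 differences between -0.73 and 0.81, and the smallest unadjusted p was 0.0766, for the NF-kappa-B inhibitor Nfkbia. Arc, which encodes a regulator of AMPA receptor endocytosis, measured 113, 143 and 187 units in late arrays and 145, 163 and 181 in early arrays. Its log2 difference was -0.15 (95% interval -0.44 to 0.13). The probe sets of Fos, a component of the AP-1 transcription factor, gave -0.15 and -0.02. Those of Egr1, a zinc finger transcription factor, gave 0.47, 0.23, -0.02 and -0.04. For 44 of the 49 probe sets the 95% interval lay within 1 log2 unit of 0, and for 11 within 0.5. With Homer1 included, the list held 55 probe sets with a median of -0.02, against 0.02 for all tested, and its array score averaged 0.10 at 0 h, 0.14 at 2 h and -0.21 at 3 h. The early hours were thus split, but unevenly. Replicate 1 of 3 h scored -0.09, within the late range of -0.15 to 0.11, and replicate 2 scored -0.33. Without the 3 h arrays the median was -0.13, with 40 of 55 lower and 5 under an unadjusted 0.05 (3 with all arrays). That count was 6 without 3 h replicate 2, all lower, and 6 without 12 h replicate 1, 4 of them lower. On 3 h replicate 2 the scores of the glutamate receptor (-0.41), GABA (-0.40) and ion channel (-0.39) lists were also the lowest of any array.

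Among glutamate receptors and their scaffolds, 9 of 49 probe sets (18.4%) had an unadjusted p under 0.05, against 4.25% of all tested. Of the 9, 7 were lower and 2 higher in late arrays, and the 3 Homer1 probe sets are among the lower ones. None passed the adjusted threshold. The count was 6 without 2 h replicate 2. The list median was -0.12, with 32 of 49 below 0. It was -0.23 without 0 h replicate 2, -0.21 without 3 h replicate 2 and -0.08 without 2 h replicate 1. It was near 0 without the 2 h arrays (-0.0004, 25 of 49 lower) or the 6 h arrays (-0.01, 26 of 49), and -0.03 with 1 probe set per gene (16 of 29 lower).

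Dlg3, which encodes the postsynaptic scaffold SAP102, gave 14.3, 24.8 and 40.1 units in late arrays and 27.6, 44.2 and 49.0 in early arrays. These ranges overlapped, and 6 of 7 late arrays were below the early mean (log2 difference -0.76, SE 0.25). Grm3, a group II metabotropic receptor, measured 178, 227 and 301 in late arrays and 231, 312 and 421 in early arrays (-0.45, SE 0.16). Grm7, a presynaptic group III receptor, measured 12.1, 25.4 and 41.7 in late arrays and 27.6, 40.03 and 56.4 in early arrays (-0.71, SE 0.26). All 3 overlapped between windows while their hour means did not. Non-overlapping hour means were found for 423 of 5339 probe sets (7.92%), 243 higher (4.55%) and 180 lower (3.37%) in late arrays. In the other direction, Shank2, a scaffold of the postsynaptic density, had a log2 difference of 0.93 (SE 0.38) at low intensity, with medians of 18.0 in late arrays and 9.68 in early arrays. NMDA receptor subunits gave no such separation: Grin1 had log2 differences of -0.22 and 0.21, and Grin2b 0.08.

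Proteins of vesicle release gave 4 of 53 probe sets (7.55%) with an unadjusted p under 0.05, all lower in late arrays, against 4.25% of all tested (2.27% lower). The 4 probe sets belonged to 3 genes, and the list median was -0.04. The count of 4 depended on single arrays. It was 1 without 12 h replicate 2 or without 2 h replicate 2. It was 2 without 2 h replicate 1 or without 3 h replicate 1, and 7 without 6 h replicate 3. With 1 probe set per gene, 1 of 36 was under 0.05, against 3.79% of all tested. In that setting 16 of 36 were lower and the median was 0.04. Sv2b, a glycoprotein of synaptic vesicles, measured 48.4, 84.2 and 95.1 units in late arrays and 65.6, 136 and 149 in early arrays (log2 difference -0.66, SE 0.20). Only 3 h replicate 2 among early arrays lay within the late range. A second Sv2b probe set gave -0.02. Snap25, a SNARE protein of the presynaptic membrane, gave -0.65 and -0.54 by the probe sets of smallest p, and -0.30 and -0.28 by another pair.

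The 12 genes named as lower in late arrays by the smallest p were, besides Homer1, Dlg3 and Sv2b, Tnfrsf11b, Tpm3, Ube2a, Rasa1, Gnao1, Cpd, Pi4ka, Top1 and Klf9. Folds ranged from 1.33 to 2.56 lower in late arrays, every adjusted p was 0.924, and hour means did not overlap for 12 of 12. The genes were chosen for these differences, so the counts describe the choice.

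Klf9 encodes a transcription factor induced by glucocorticoids and thyroid hormone. It measured 115, 178 and 191 units in late arrays and 188, 208 and 423 in early arrays (log2 difference -0.61, SE 0.20). Both 2 h arrays, 364 and 423, stood above the rest, and without them the log2 difference was -0.29. A second Klf9 probe set gave -0.09. Gnao1, the alpha subunit of the neuronal G protein Go, had the same outline, with 92.7, 124 and 149 in late arrays and 147, 156 and 311 in early arrays (-0.59, SE 0.18), and 2 h again highest. Without the 2 h arrays its log2 difference was -0.32. Its second probe set gave -0.30.

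Tnfrsf11b, the secreted decoy receptor osteoprotegerin, had the widest fold of the 12 named genes lower in late arrays, 2.56 (log2 difference -1.35, SE 0.35), but at 4.57, 9.74 and 18.2 units in late arrays and 11.6, 24.0 and 33.5 in early arrays. On 2 late arrays it lay at the lowest level allowed, 4.57, so the fold is understated. Rasa1, a GTPase-activating protein of Ras, was also dim, at 5.29, 13.995 and 18.7 in late arrays and 17.6, 22.1 and 31.1 in early arrays (-0.98, SE 0.31). Dim probe sets carry the wider errors here.

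Ube2a, a ubiquitin-conjugating enzyme, gave 87.7, 127 and 176 units in late arrays and 149, 173 and 231 in early arrays (log2 difference -0.56, SE 0.18). Cpd, a carboxypeptidase of the Golgi, gave 69.1, 114 and 208 in late arrays and 148, 178 and 411 in early arrays (-0.85, SE 0.27). In both the ranges overlapped, and all 7 late arrays lay below the early mean. Top1, DNA topoisomerase I, gave 72.4, 101 and 121 in late arrays and 113, 133 and 143 in early arrays (-0.41, SE 0.13). Pi4ka, a phosphatidylinositol 4-kinase, had -0.41 (SE 0.13), with -0.42 and -0.14 by its other probe sets. Tpm3, a tropomyosin of actin filaments, had -0.52 (SE 0.16), but its 4 other probe sets ran in both directions, from -0.36 to 0.45.

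Higher values in late arrays were led by Lct, Cckbr and Tmem214, and the 12 genes of this direction had folds of 1.31 to 2.25 with an adjusted p of 0.924 each. Hour means did not overlap for 11 of them, all but Or8g20b, against 4.55% of all tested probe sets in this direction. These genes too were chosen for their differences, so the count describes the choice. Lct, the intestinal disaccharidase lactase, measured 17.5, 27.8 and 44.6 units in late arrays and 7.68, 12.9 and 20.2 in early arrays (log2 difference 1.09, SE 0.29). The windows overlapped slightly, and a second Lct probe set gave 0.15. Cckbr, the brain receptor for cholecystokinin and gastrin, measured 35.4, 54.4 and 56.9 in late arrays and 23.2, 34.0 and 42.6 in early arrays (0.57, SE 0.18). Its second probe set gave 0.30. Tmem214, a membrane protein of the endoplasmic reticulum, gave 153, 184 and 213 in late arrays and 122, 142 and 158 in early arrays (0.39, SE 0.13).

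Sirt7, a nucleolar deacetylase of the sirtuin family, had a log2 difference of 0.42 (SE 0.15), and Mrpl52, a protein of the mitochondrial ribosome, 0.40 (SE 0.15). Bckdhb, a subunit of the branched-chain keto acid dehydrogenase, had 0.46 (SE 0.17). Arfgap2, which regulates coat assembly on Golgi vesicles, had 0.54 (SE 0.19). Their late and early ranges overlapped in every case. Mms19, a factor for iron-sulfur protein assembly, had 0.66 (SE 0.23) and Tnfsf13, the cytokine APRIL, 0.57 (SE 0.21), with 0.26 and -0.01 by its other probe sets. The olfactory receptor Or8g20b had 0.92 (SE 0.32) and the aspartyl hydroxylase Asph 0.68 (SE 0.25). Slc13a2, a dicarboxylate transporter known from kidney and gut, had the largest value, 1.17 (SE 0.43). Its late arrays ranged from 10.6 to 101 units and its early arrays from 7.52 to 26.1, with 12 h replicate 1 alone at 101 and every other late array at 33.4 or less.

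**Figure D3:**
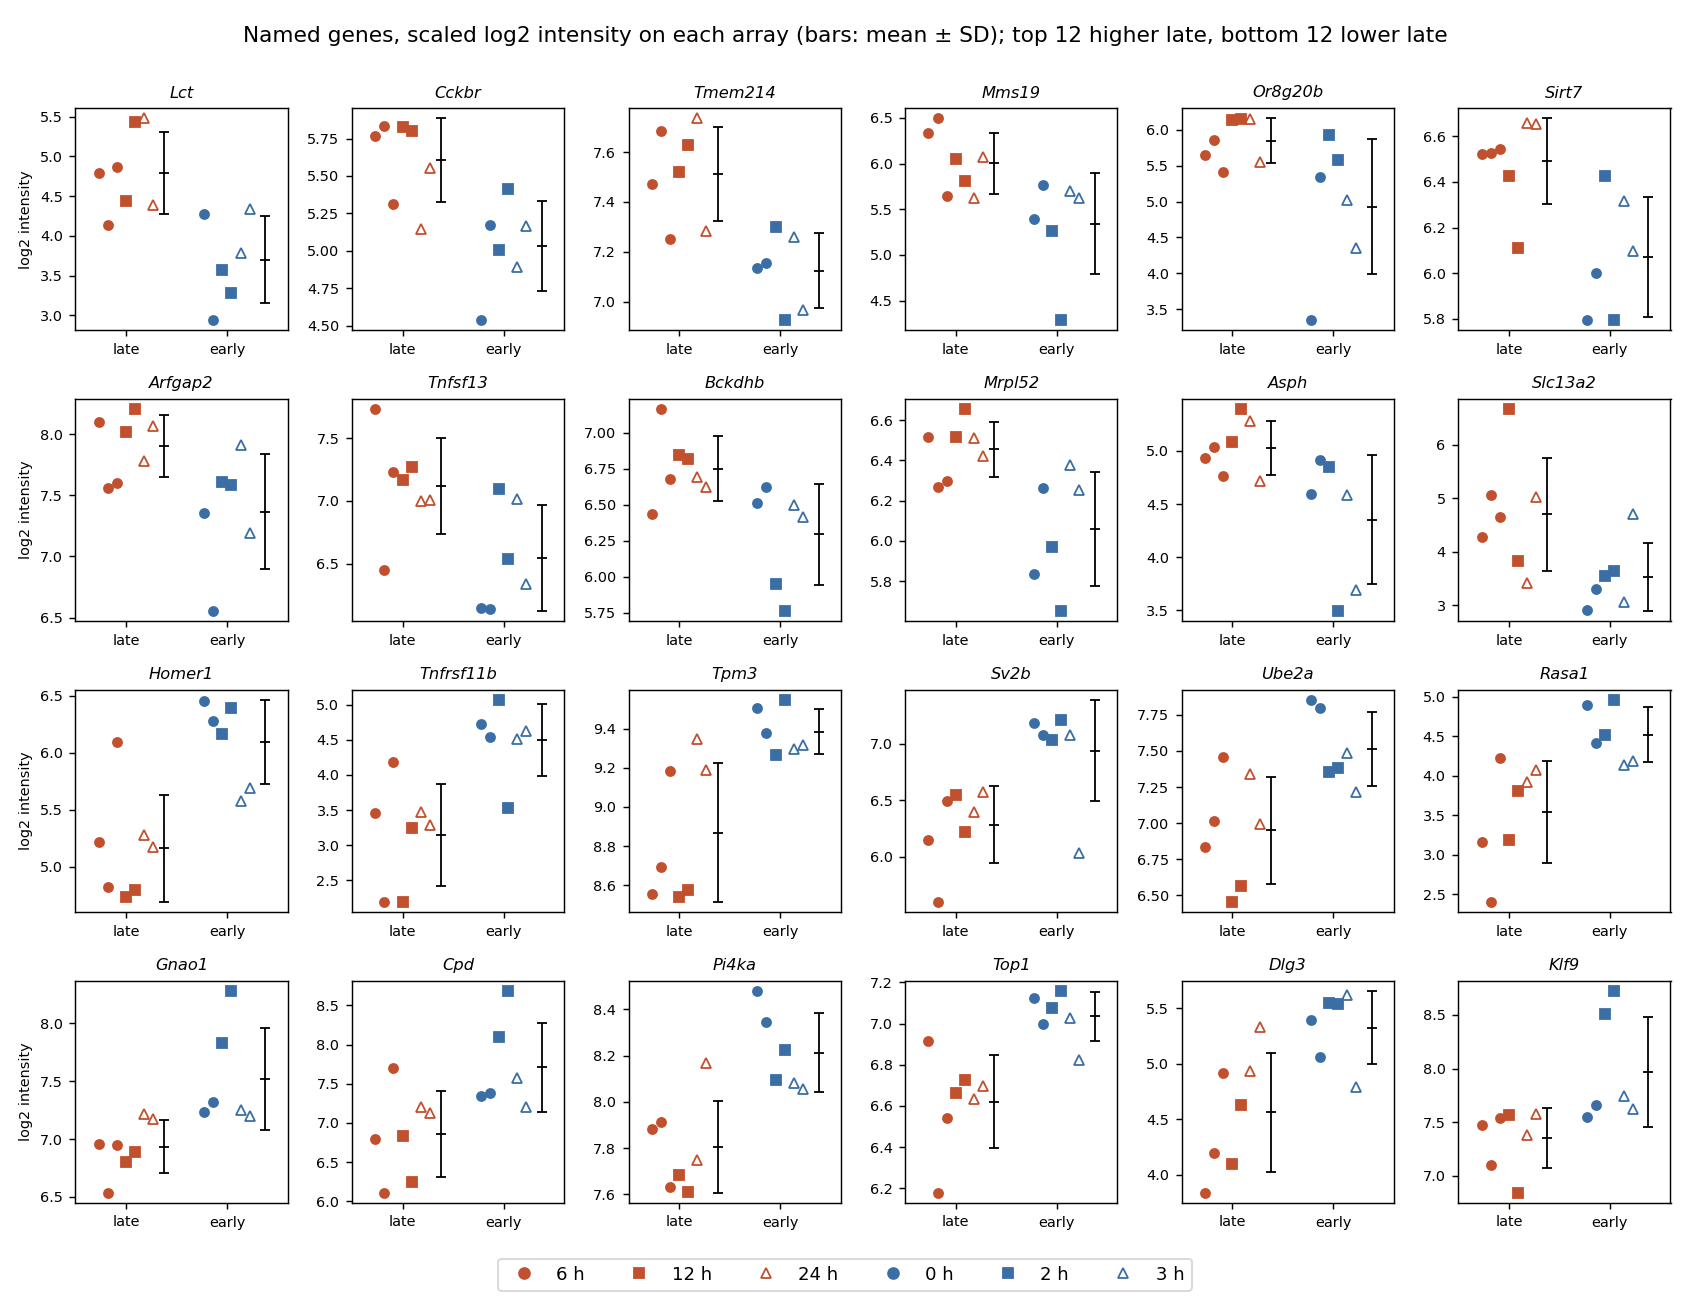
Log2 scaled intensity (y axis) of the 24 named genes on each array, late arrays left and early arrays right in each panel, with symbols for the hour and bars for the mean and SD (n = 7 late, 6 early). The top 12 panels are genes higher and the bottom 12 genes lower in late arrays, and every panel shows overlapping windows.

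Arrays of the windows failed to overlap for only 3 of the 5339 probe sets (0.0562%). Nefl, the light neurofilament subunit, measured 53.6, 165 and 189 units in late arrays and 191, 209 and 230 in early arrays (log2 difference -0.60, SE 0.24), while its second probe set gave -0.09. Ctdsp1, a phosphatase that silences neuronal genes outside the nervous system, measured 87.7, 92.0 and 105 in late arrays and 110, 118 and 131 in early arrays (-0.32, SE 0.12). LOC102549726 measured 211, 226 and 340 in late arrays and 186, 194 and 200 in early arrays (0.30, SE 0.13). These 3 were picked out after their values were seen.

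Heat shock proteins and chaperones were the list with the lowest median. Of 75 probe sets of 36 genes, 55 were lower in late arrays, and the median log2 difference was -0.14 against 0.02 for all tested. An unadjusted p under 0.05 was reached by 10 probe sets of 8 genes (13.3%), all lower, against 2.27% lower among all tested, and none passed the adjusted threshold. The array score of the list, the mean deviation of its genes, averaged 0.22 at 0 h, -0.06 at 2 h, 0.00 at 3 h, -0.10 at 6 h, -0.09 at 12 h and 0.08 at 24 h. The 0 h arrays thus stood above the other hours, and 2 h and 3 h did not stand above 24 h. The count of 10 was 4 without 0 h replicate 1, 6 without 12 h replicate 2 and 6 without 2 h replicate 2. It was 15 without the 24 h arrays, and 2 when each gene was read by its brightest probe set alone. It was 4 without 6 h replicate 2 and 12 h replicate 1, the pair least like the other arrays, a setting added after seeing the data. The median stayed between -0.22 and -0.09 under all 36 alternatives.

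Canx, the calnexin chaperone that folds glycoproteins in the endoplasmic reticulum, measured 8.21, 25.4 and 48.2 units in late arrays and 29.97, 46.6 and 61.2 in early arrays (log2 difference -0.89, SE 0.32). A second Canx probe set measured 176, 233 and 324 in late arrays and 239, 357 and 438 in early arrays (-0.45, SE 0.18), and the other 3 gave -0.52, -0.14 and -0.10. The windows overlapped in each. Hspd1, the mitochondrial chaperonin, measured 139, 233 and 293 in late arrays and 227, 308 and 364 in early arrays (-0.49, SE 0.18). Hsp90ab1, the constitutive cytosolic HSP90, measured 1206, 1933 and 2232 in late arrays and 1924, 2195 and 3073 in early arrays (-0.41, SE 0.17), with -1.05 (SE 0.41) by a dimmer probe set. Cryab, a small heat shock protein abundant in glia, measured 55.0, 116 and 129 in late arrays and 113, 136 and 210 in early arrays (-0.44, SE 0.20). In all of these 6 probe sets the lowest late value was that of 6 h replicate 2. Without that array the list had 9 probe sets under 0.05 and a median of -0.11.

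**Figure D4:**
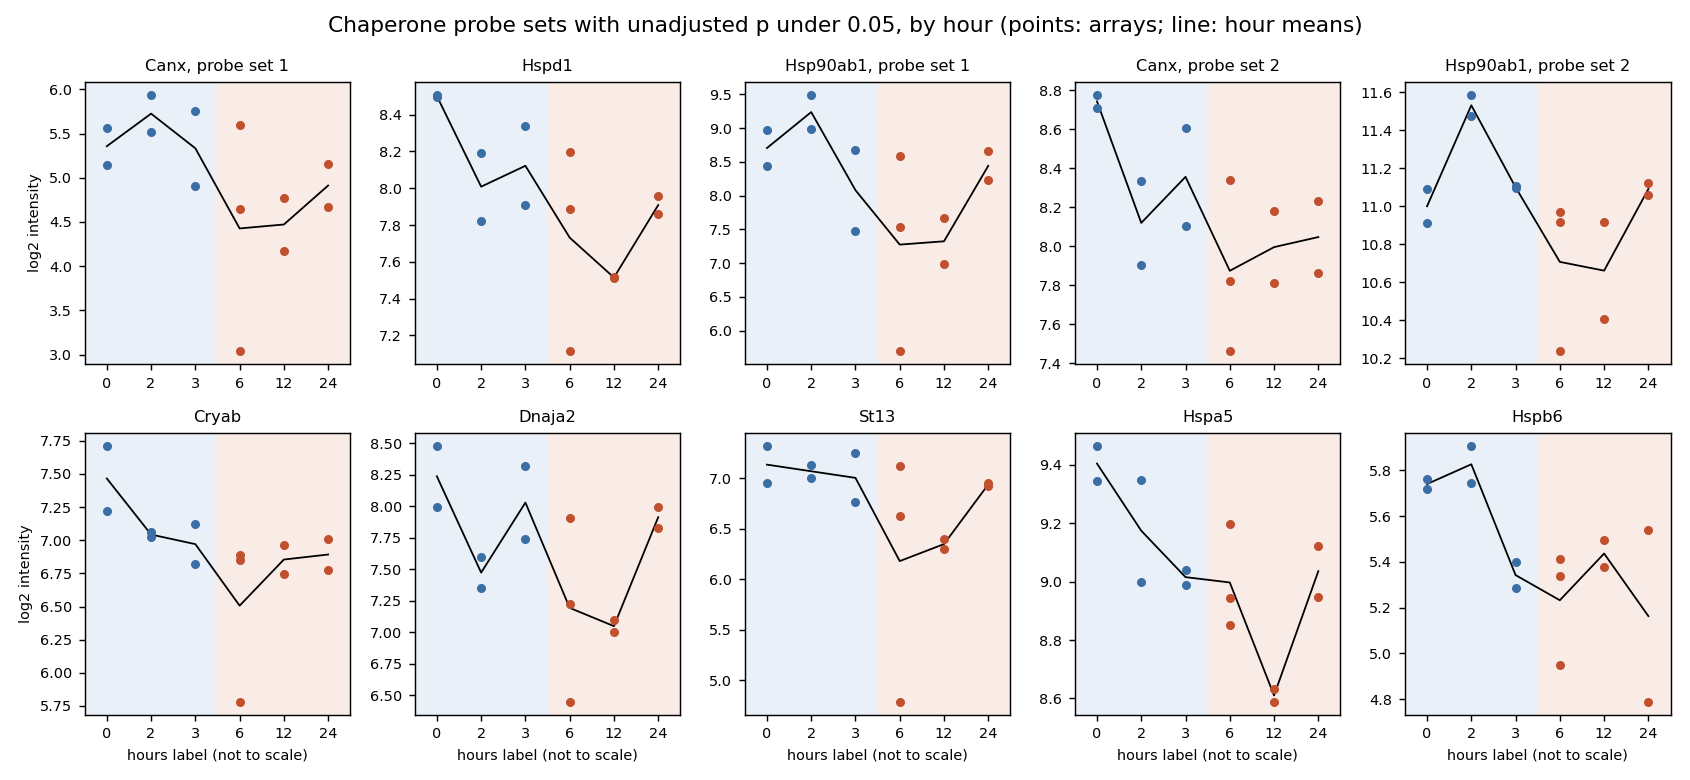
Log2 scaled intensity (y axis) of the 10 chaperone probe sets with an unadjusted p under 0.05 by hour label (x axis, not to scale), with points for arrays and lines through hour means. Early hours are shaded blue and late hours red. Most lines are lowest at 6 h or 12 h, the windows overlap in every panel, and the log2 differences range from -1.05 to -0.30.

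The promoters of these chaperones were examined for elements of the endoplasmic reticulum stress response and of the heat shock response. The 250 bases before the start were searched on both strands for the endoplasmic reticulum stress element (CCAAT and CCACG separated by 9 bases), for the heat shock element (GAA, TTC and GAA, each separated by 2 bases, or its reverse complement, which a search of both strands finds as well), and for the cyclic AMP response element TGACGTCA. Of the 10 genes searched, Homer1 among them, 7 were in the RefSeq table (build GRCr8), and Cryab, Dnaja2 and St13 were not used. Hspa5, the endoplasmic reticulum HSP70 also called BiP, and Calr, the soluble relative of calnexin, were added after their values were seen. The stress element was found in Hspa5 (chr3:38452766-38453015, plus strand), Canx (chr10:35157858-35158107, minus strand) and Calr (chr19:40213117-40213366, plus strand), and in 22 of 33469 RefSeq promoters (0.0657%). Hspd1 (chr9:64084038-64084287, minus strand) held the heat shock element at 2 overlapping positions, and it was found in 0.663% of promoters. Hsp90ab1 held the cyclic AMP element, found in 1.59%, and Homer1 and Hspb6 held none of these. The sequences follow 5′ to 3′ on the gene's strand, ending at the base before the start, with the matched elements in capitals:
Hspa5: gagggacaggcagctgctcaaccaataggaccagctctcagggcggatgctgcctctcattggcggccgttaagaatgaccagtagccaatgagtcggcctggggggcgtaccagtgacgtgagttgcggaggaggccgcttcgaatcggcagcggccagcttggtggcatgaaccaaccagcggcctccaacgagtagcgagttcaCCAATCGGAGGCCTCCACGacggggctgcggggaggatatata
Canx: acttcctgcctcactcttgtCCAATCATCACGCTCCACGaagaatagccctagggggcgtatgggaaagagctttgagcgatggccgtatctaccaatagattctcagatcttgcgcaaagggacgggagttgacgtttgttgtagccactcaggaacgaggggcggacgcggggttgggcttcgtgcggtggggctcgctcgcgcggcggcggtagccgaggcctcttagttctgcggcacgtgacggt
Calr: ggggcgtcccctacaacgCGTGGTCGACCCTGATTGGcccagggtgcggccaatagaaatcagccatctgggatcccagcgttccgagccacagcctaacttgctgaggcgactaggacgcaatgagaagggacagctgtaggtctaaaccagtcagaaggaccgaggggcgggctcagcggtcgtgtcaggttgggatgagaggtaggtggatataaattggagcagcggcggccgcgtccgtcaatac
Hspd1: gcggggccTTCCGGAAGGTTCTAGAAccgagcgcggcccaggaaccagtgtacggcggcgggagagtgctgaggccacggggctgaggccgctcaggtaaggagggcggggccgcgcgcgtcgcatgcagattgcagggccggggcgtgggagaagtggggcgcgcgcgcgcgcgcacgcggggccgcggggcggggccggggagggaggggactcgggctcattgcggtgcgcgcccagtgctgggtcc

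Among the 21 different genes with the endoplasmic reticulum stress element, 6 were tested here with 16 probe sets, of which 11 were lower and 5 higher in late arrays. Their median was -0.17, against 0.02 for all tested. An unadjusted p under 0.05 was reached by 3, all lower, where 2.27% of all tested probe sets did so, and none passed the adjusted threshold. These were 2 probe sets of Canx and 1 of Hspa5. Both genes were searched with their values known, so the counts and the median describe that choice and cannot be read as a result about the element. All probe sets of Canx and Hspa5 were lower. No probe set of Calr, Ero1b, Hnrnpa3 or Hsp90b1 had an unadjusted p under 0.05, and these ran in both directions. Ero1b gave 0.32, and Hnrnpa3 0.09 and -0.11. Hspa5 measured 385, 492 and 587 units in late arrays and 508, 588 and 707 in early arrays (log2 difference -0.30, SE 0.14), with -0.24 by its second probe set. Calr gave -0.51 by one probe set and 0.23 and 0.18 by the others. Hsp90b1, the endoplasmic reticulum HSP90, gave -0.52, -0.21 and 0.07. A match of letters is a description of the promoter, and factor binding was not measured.

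Other functional lists had medians between -0.09 and 0.08, close to the 0.02 of all tested. Their shares under an unadjusted 0.05 stand against 4.25% of all tested probe sets. Proteasome and ubiquitin genes had 4 of 56 probe sets (7.14%) under an unadjusted 0.05, all lower in late arrays, namely Ube2a and Ube2b, Ube2g1 and the proteasome subunit Psmb2 (-0.49, -0.53 and -0.46 for the last 3). Cytoskeleton genes had 3 of 49 (6.12%): Nefl, the dendritic microtubule protein Map2 (-1.36, with -0.71 and -0.03 by others) and the kinesin Kif3c (-0.77). The signalling list had 4 of 74 (5.41%): Prkcb, a protein kinase C (-0.61), and the kinases Mapk6 (-0.50) and Mapk14 (-0.50) were lower in late arrays, and Prkce, another protein kinase C, was higher (0.36). The 5 Mapk14 probe sets beside it all lay below 0, from -0.72 to -0.15. The ion channel list had 4 of 47 (8.51%), the potassium channels Kcnd2 (-1.07) and Kcnc2 (-0.71), the sodium channel Scn2a (-0.49) and the calcium channel subunit Cacna2d1 (0.37). A brighter Kcnc2 probe set gave -0.10. Under the alternatives the counts ranged from 1 to 10 for proteasome and ubiquitin, 0 to 8 for cytoskeleton, 1 to 10 for signalling and 0 to 6 for ion channels.

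Lipid synthesis had 2 of 45 (4.44%), with Msmo1, a sterol oxidase, at -0.91 and Insig1, which retains the sterol sensor, at -0.40, although a second Msmo1 probe set gave 0.13. App, the amyloid precursor protein, gave 137, 342 and 412 units in late arrays and 372, 474 and 631 in early arrays (log2 difference -0.67, SE 0.23), and -0.33 by a second probe set. Of 14 clock gene probe sets (7.14% under an unadjusted 0.05), Dbp, an output gene of the clock, had 0.45 and 0.33. Its intensity was 133, 184 and 238 in late arrays and 104, 129 and 204 in early arrays. Glucocorticoid responsive genes had 1 of 21 (4.76%), Errfi1, an inhibitor of the EGF receptor (-0.42). Klf9, described above, was not a member of that list. Respiratory chain genes had 3 of 72 (4.17%), Ndufs1 (-0.91), Uqcrfs1 (0.42) and Atp5if1 (0.45). Trophic factors had 2 of 42 (4.76%), Fgf2 (0.64) and Fgf9 (-0.41). The 5 probe sets of the neurotrophin Bdnf lay between -0.17 and 0.15. Glycolysis had 1 of 29 (3.45%), the lactate transporter Slc16a1 (-0.48), and splicing factors 1 of 32 (3.12%), Hnrnpa1 (0.63). From glucocorticoid responsive genes on, these shares were near or below the 4.25% of all tested. GABA genes (27 probe sets), adhesion and matrix genes (56) and ribosomal proteins (55) had 0 each.

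**Figure D5:**
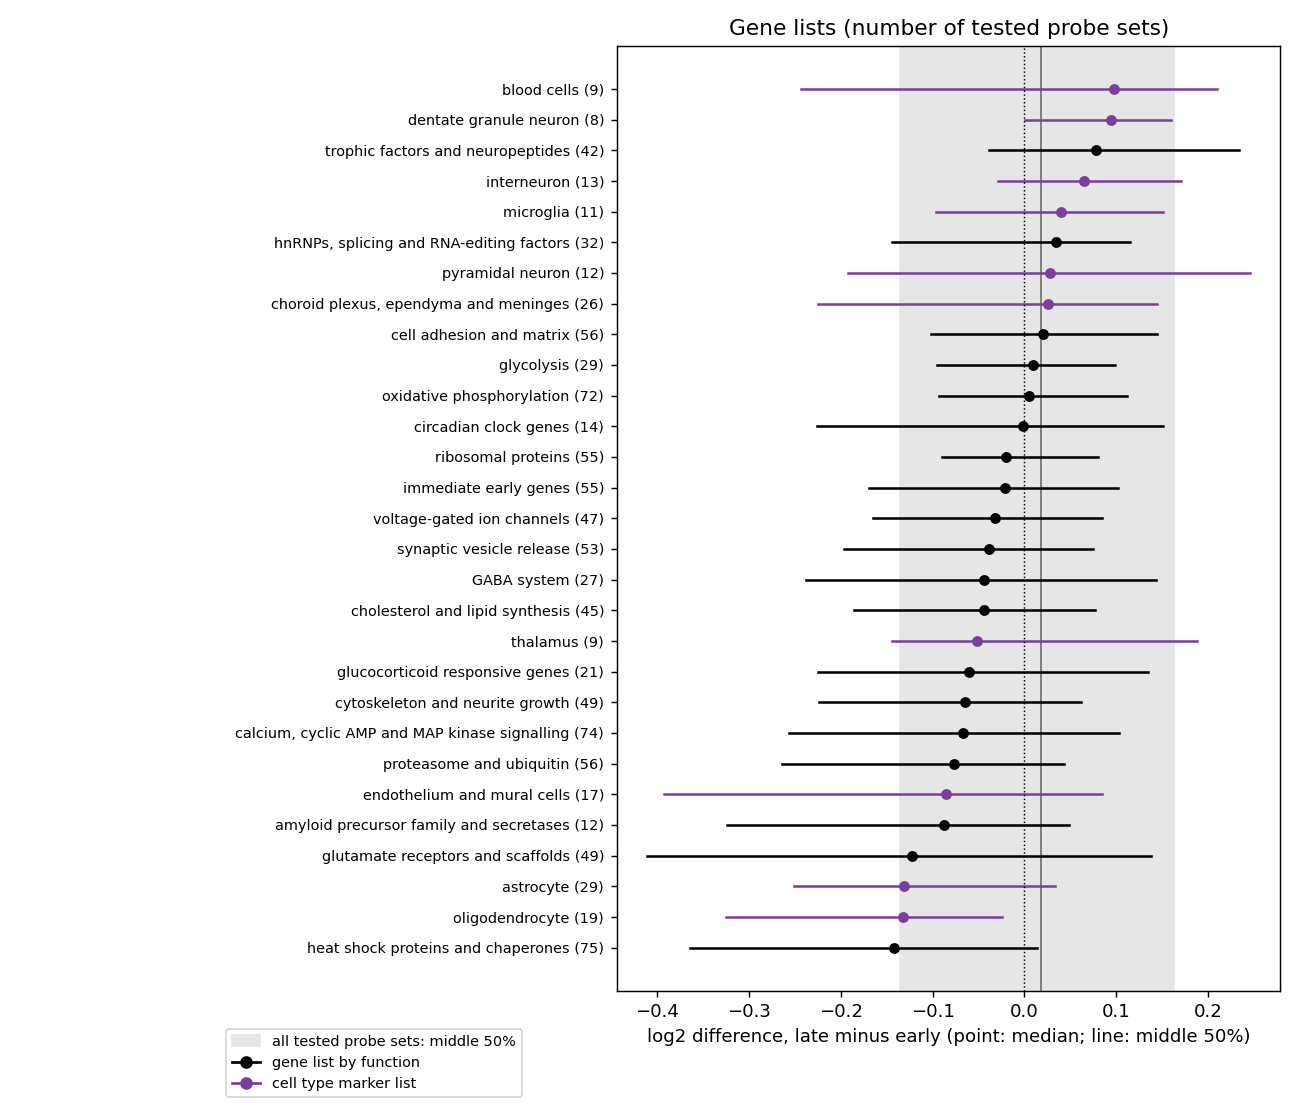
Median log2 difference of late minus early arrays (dots) and its middle 50% (bars) for 19 lists by function and 10 cell type marker lists (number of probe sets in brackets), with the middle 50% of all tested probe sets in grey. The medians run from -0.14 for chaperones to 0.10 for blood cells, and all lie within or at the edge of the grey band of -0.14 to 0.16.

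Among cell type markers, the oligodendrocyte and astrocyte lists had the lowest medians, and none of their members passed the adjusted threshold. Oligodendrocyte markers were lower in late arrays in 16 of 19 probe sets, with a median of -0.13 and 2 (10.5%, against 4.25% of all tested) under an unadjusted 0.05. Without the 24 h arrays the median was 0.03, with 8 of 19 lower. Mbp, the myelin basic protein, measured 1022, 1208 and 2351 units in late arrays and 1524, 1821 and 2607 in early arrays (log2 difference -0.48, SE 0.19), and Car2, a carbonic anhydrase, gave -0.68 (SE 0.26). The windows overlapped for both. A second, brighter Car2 probe set gave -0.004, with medians of 362 units in late arrays and 363 in early arrays. By array, the list score ranged from -0.43 to 0.23 in late arrays and from -0.46 to 0.31 in early arrays, with both 24 h arrays (-0.43 and -0.38) and 2 h replicate 1 (-0.46) low. The median was -0.04 without 24 h replicate 1, -0.03 without 24 h replicate 2, -0.04 without 0 h replicate 2, -0.21 without 6 h replicate 1 and -0.29 without 2 h replicate 1. The count of 2 was 1 without 2 h replicate 2, and 3 without replicate 1 of 6 h or 2 h, or replicate 2 of 12 h or 3 h.

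Astrocyte markers were lower in late arrays in 21 of 29 probe sets (median -0.13). Without the 2 h arrays the median was 0.01 with 14 of 29 lower, and without 2 h replicate 2 alone it was -0.06. Only 1 astrocyte probe set (3.45%) had an unadjusted p under 0.05, the glutamate transporter Slc1a3 (-0.63, SE 0.28). The other Slc1a3 probe sets gave -0.26, 0.26 and -0.10. The count of 1 was 0 without replicate 2 of 6 h or 12 h, replicate 1 of 0 h or 3 h, or either 2 h array. It was 2 or 3 without replicate 1 of 6 h, replicate 2 of 3 h, or either 24 h array. Of vascular markers, 3 of 17 (17.6%, against 4.25% of all tested) reached an unadjusted 0.05. The smooth muscle gene Tagln (-0.999) and Slc16a1 were lower in late arrays and Ly6c higher (0.93). A brighter Tagln probe set gave -0.16. Of 9 blood probe sets, 2 (22.2%) reached an unadjusted 0.05, the globins Hbb (-0.49) and Hbb-b1 (-0.46). Their sequences are near-identical, and whether their probe sets can tell them apart was not tested. The thalamus list had 2 of 9 (22.2%), Kcnc2 and the tyrosine phosphatase Ptpn3 (0.54), in opposite directions. Their brighter probe sets gave -0.10 for Kcnc2 and 0.37 for Ptpn3. Pyramidal neuron (12 probe sets), interneuron (13), microglia (11) and choroid plexus (26) lists had 0. The part of these marker differences in the gene differences above was not tested.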

How the data were processed

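Total RNA of rat dentate gyrus was measured on 16 Affymetrix RGU34A arrays, of which 13 entered this comparison. The deposited values are linear intensity summaries, 1 per probe set and array; how the authors computed, corrected and scaled them is not given in the sources used here. All 13 arrays were scaled to a common 2% trimmed mean (95.26) over the 8740 probe sets that are not AFFX controls. The pooled 20th percentile (4.573) served as the lowest level before log2 transformation. Probe sets above the pooled 40th percentile (15.31) on at least 6 arrays were tested, 5339 in all. No arrays held identical values. Precision is limited by the number of arrays; read depth does not apply.

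Late and early arrays were compared in R 4.3.3 by limma 3.58.1, using lmFit and a trended eBayes without covariates, and p-values were adjusted over all tested probe sets by the Benjamini-Hochberg method at 0.05. The script was tested on simulated data. Values of single array measures were set against all 1716 splits of the arrays. Gene symbols came from the platform annotation, 6994 rows of which were updated by identifier; 7006 had 1 symbol, 308 several and 1426 none.

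The windows, the 19 function lists, the 10 marker lists and the alternatives were chosen with earlier results of these data known. The naming rule took probe sets with 1 symbol past the adjusted threshold, and where fewer than 12 passed in a direction, filled that direction to 12 by the smallest p; of the lists, the members of smallest p and the defining ones could also be named. Alternatives covered normalization, lowest level, filter, variance model, array weights, design, covariates, 1 probe set per gene, and leaving out arrays or hours. Promoter sequences are RefSeq's, build GRCr8.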

Additional observations from a re-analysis of the deposited data

Results flagged for a closer look

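Of 56 groups of arrays checked, 6 held an array far from the others of its window by Dixon's test, where chance gives about 1 in 20. Homer1 measured 68.3 scaled intensity units on 6 h replicate 3, against 26.6 to 38.9 on the other late arrays. Sv2b measured 48.45 on 6 h replicate 2, against 71.1 to 95.1 on the other late arrays, and 65.64 on 3 h replicate 2, against 131 to 149 on the other early arrays. Sirt7 measured 68.99 on 12 h replicate 2, against 86.0 to 101 on the other late arrays. Mms19 measured 19.51 on 2 h replicate 2, against 38.3 to 54.5 on the other early arrays, and Tnfrsf11b 11.61 on the same array, against 22.8 to 33.5. The cause of these single values was not tested.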

How the results depend on the processing

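The count past the adjusted threshold was 0 under all 36 alternatives; the smallest adjusted p was 0.184, without 6 h replicate 3. The count at an unadjusted p under 0.05, 227 as reported, was 345 of 8740 with no filter, 146 with the filter at the 60th percentile, 150 with hour as a random block (correlation 0.11), 123 of 3247 with 1 probe set per gene and 385 without the 24 h arrays. Leaving out 1 array at a time gave 149 to 315, and without 6 h replicate 2 and 12 h replicate 1 together, a setting added after seeing the data, it was 179. With 8740 or 3247 probe sets the number tested itself differs; for the other settings the cause was not tested. None of the 24 named genes changed sign under any alternative that tested it, though some log2 differences came closer to 0, Klf9 to -0.29, Gnao1 to -0.32, Bckdhb to 0.24 and Slc13a2 to 0.71. The list medians that moved by more than the spread between arrays were those of oxidative phosphorylation (-0.09 without the 6 h arrays), splicing factors (-0.10 without 3 h) and thalamus (0.20 without 0 h).

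Replicate numbers did not pair the arrays: over 15 pairs of hours, same-numbered deviations correlated between -0.10 and 0.25, and 7 pairs were over 0.1. With a replicate block, 0 probe sets passed and 332 had an unadjusted p under 0.05. Number 3 occurs only at 6 h, so the block also removes 6 h replicate 3 from the contrast, and leaving out that array alone gave 315. With 7 and 6 arrays, the median 95% half-width was 0.43 on the log2 scale, without adjustment for the number of probe sets. Differences within that width were not detectable for the median probe set. Larger ones, such as -0.93 for Homer1, did not pass the adjusted threshold either.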
